A study of Mus musculus with 12 samples.

Results

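The Wnt pathway genes described here are the Wnt ligands, their Frizzled receptors, Lrp co-receptors and secreted modulators of the Sfrp, Dkk and Wif families. Intracellular components and target genes of the canonical branch are also among them. They were chosen by gene symbol alone: any symbol starting with Wnt, Fzd, Sfrp or Dkk and a number (or Dkkl), with Axin1, Axin2, Lef1, Tcf7, Tcf7l1, Tcf7l2, Lrp5, Lrp6, Ctnnb1, Nkd1, Wif1, Rnf43 and Znrf3. The rule found 102 of the 45101 probe sets on the array, which stand for 51 genes, and 58 of these probe sets, for 35 genes, passed the filter on dim signals and were tested. Of the names in the rule, 1 (Tcf7) was not matched to a probe set here.

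Total RNA from renal cortex was hybridised to Affymetrix Mouse Genome 430 2.0 arrays, with 3 arrays in each of 4 groups. The groups were ICGN mice aged 8 weeks, ICR mice aged 8 weeks, ICGN mice aged 4 weeks and ICR mice aged 4 weeks. ICGN is an inbred strain derived from the ICR stock, is labelled as having nephrotic syndrome, and is known to carry a loss-of-function mutation of Tns2, which encodes the focal adhesion protein tensin 2. ICR mice, an outbred stock labelled normal, served as the controls, so the contrast covers every genetic difference between the strain and the stock and not 1 allele, and no treatment is named for any group. The labels number the arrays within a group but do not state that each came from its own animal, so the spread that the p-values rest on is that between these arrays and may be technical.

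Wnt proteins are secreted lipid-modified ligands that bind a Frizzled receptor together with Lrp5 or Lrp6. In the canonical branch this stops the complex built on Axin from marking beta-catenin for destruction, and beta-catenin then acts in the nucleus with factors of the TCF/LEF family. In the kidney the pathway forms nephrons before birth, is quiet in most adult tubules, and is known to be reactivated in podocytes, tubules and interstitial cells after injury.

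Sequences upstream of 3 members are shown because these genes carry the main differences below: Wif1 between the strains at both ages, Dkk2 between the strains and between the ages, and Tcf7l2 between the ages. Each runs from 250 bases before the annotated start to 50 bases after it, on the plus strand of RefSeq's GRCm38.p6, and capitals mark a TCF/LEF motif, searched as CTTTGAT or CTTTGTT on both strands.
Wif1, chr10:121033754-121034053: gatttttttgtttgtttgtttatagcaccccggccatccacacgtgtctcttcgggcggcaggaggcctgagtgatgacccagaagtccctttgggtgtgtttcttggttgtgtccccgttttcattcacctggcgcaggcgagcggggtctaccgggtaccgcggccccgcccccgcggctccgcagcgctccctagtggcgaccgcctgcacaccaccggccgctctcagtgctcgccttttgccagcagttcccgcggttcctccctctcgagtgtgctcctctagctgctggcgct
Dkk2, chr3:132085042-132085341: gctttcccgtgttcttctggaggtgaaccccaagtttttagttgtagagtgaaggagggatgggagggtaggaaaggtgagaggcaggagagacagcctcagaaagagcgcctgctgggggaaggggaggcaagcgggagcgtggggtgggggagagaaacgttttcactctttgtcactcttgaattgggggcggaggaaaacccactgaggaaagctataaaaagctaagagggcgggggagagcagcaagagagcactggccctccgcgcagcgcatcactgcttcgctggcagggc
Tcf7l2, chr19:55895071-55895370: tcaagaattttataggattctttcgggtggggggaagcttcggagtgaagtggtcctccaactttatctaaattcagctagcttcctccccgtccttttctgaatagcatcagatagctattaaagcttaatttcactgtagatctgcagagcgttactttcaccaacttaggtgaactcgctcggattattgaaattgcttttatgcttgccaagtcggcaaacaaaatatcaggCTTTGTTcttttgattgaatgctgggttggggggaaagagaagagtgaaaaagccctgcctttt
The Wif1 and Dkk2 windows held neither motif. Neither did the first window listed for Tcf7l2, chr19:55741560-55741859, which is not shown. The Tcf7l2 window, the second of the pair listed for that gene, held CTTTGTT starting 14 bases before the start site. Of the 35 tested genes, 20 had at least 1 promoter in the table, 24 promoters in all, and 3 of these held a motif (12.5%, in Fzd7, Tcf7l2 and Wnt5b), against 3066 of 32841 promoters of all genes (9.34%). A match is a description of these letters and not evidence of binding.

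Levels below are log2 of the deposited signal after the arrays were scaled to 1 median (47.2), an offset of 12.9 was added and each array was centred on the median of its tested genes. Differences are ICGN minus ICR, or 8 minus 4 weeks, as log2 change ± standard error, with 3 arrays a group. Calls were made in limma where the adjusted p did not exceed 0.05, with Benjamini-Hochberg adjustment over all 12385 genes tested, so every adjusted p for a gene comes from that fit. The median probe set of an array lay at 5.80 to 6.09 on this scale. Of the 35 tested Wnt genes, 22 lay above the array median on all 12 arrays and 13 on 3 to 11 arrays. Of these, 2 (Wif1 and Wnt10a) passed the filter through ICGN arrays alone and 1 (Lrp5) through 4-week arrays alone. A gene that passes in this way has to differ between those groups, so counts over the 35 are a description of the genes that passed, and for these 3 the result with no filter is also given. The other 16 genes were under the filter: Dkk1, Dkk4, Dkkl1, Fzd9, Lef1, Rnf43, Wnt1, Wnt2, Wnt2b, Wnt3, Wnt3a, Wnt8a, Wnt8b, Wnt10b, Wnt11 and Wnt16. Their highest level on any array was 6.17 (Wnt8a), and 13 of them lay above the array median on no array.

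Tns2, the gene mutated in ICGN, had levels of 7.38, 6.45 and 6.06 in ICGN cortex at 8 weeks, against 8.62, 8.53 and 8.46 in ICR cortex, and 6.96, 6.61 and 6.47 in ICGN cortex at 4 weeks, against 8.59, 8.70 and 8.63 in ICR cortex. All ICGN arrays lay below all ICR arrays of the same age (-1.91 ± 0.25, adjusted p = 8.77e-05, at 8 weeks and -1.96 ± 0.25, adjusted p = 0.000815, at 4 weeks). Replicates correlated at 0.978 to 0.989 over genes within a group. The authors' table gives the 8-week arrays a trimmed mean of 500 and the 4-week arrays one of 100, so in every comparison of ages the age and the processing cannot be told apart. A tissue sample holds many cell types, and fewer cells of a type cannot be told apart from less RNA per cell.

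At 8 weeks 6 Wnt genes rose in ICGN cortex, the secreted modulators Wif1, Dkk2 and Dkk3, the ligand Wnt10a and the receptors Fzd3 and Fzd6. A further 3 fell, the receptors Fzd4 and Fzd8 and the scaffold Axin1. That is 9 of 35 tested genes (25.7%), against 32.4% over all genes, 12.8% called higher and 19.6% lower. The median Wnt gene differed by 0.11, against -0.06 over all genes, and the groups did not overlap in 12 of 35 Wnt genes, against 44.6% of all genes. At an unadjusted p under 0.05 the Wnt genes held 11 higher and 6 lower (31.4% and 17.1%), against 17.1% and 25.7% of all genes. With no filter on dim signals 8 rose and 3 fell of all 51 Wnt genes (21.6%, against 20.3% of all genes). Of the alternatives that change the scaling, the authors' own scaling gave 9 higher and 0 lower Wnt genes at 8 weeks, and scaling to 1 median without centring gave 2 higher and 5 lower, so the split by direction depended on the scaling. At 4 weeks 2 of the 7 tested secreted modulators rose in ICGN cortex, Wif1 and Dkk3, and no Wnt gene fell. These were 2 of 35 (5.71%), against 4.13% called over all genes, of which 2.05% were called higher and 2.08% lower. With no filter the same 2 were called (3.92% of 51, against 2.22%). At an unadjusted p under 0.05 there were 6 higher and 3 lower (17.1% and 8.57%), against 8.38% and 10.1% of all genes. The median Wnt gene differed by -0.06, against -0.02 over all genes, and the groups did not overlap in 7 Wnt genes, against 24.8% of all genes. The plot of strain differences for all 35 genes orders them by role.

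**Figure D1:**
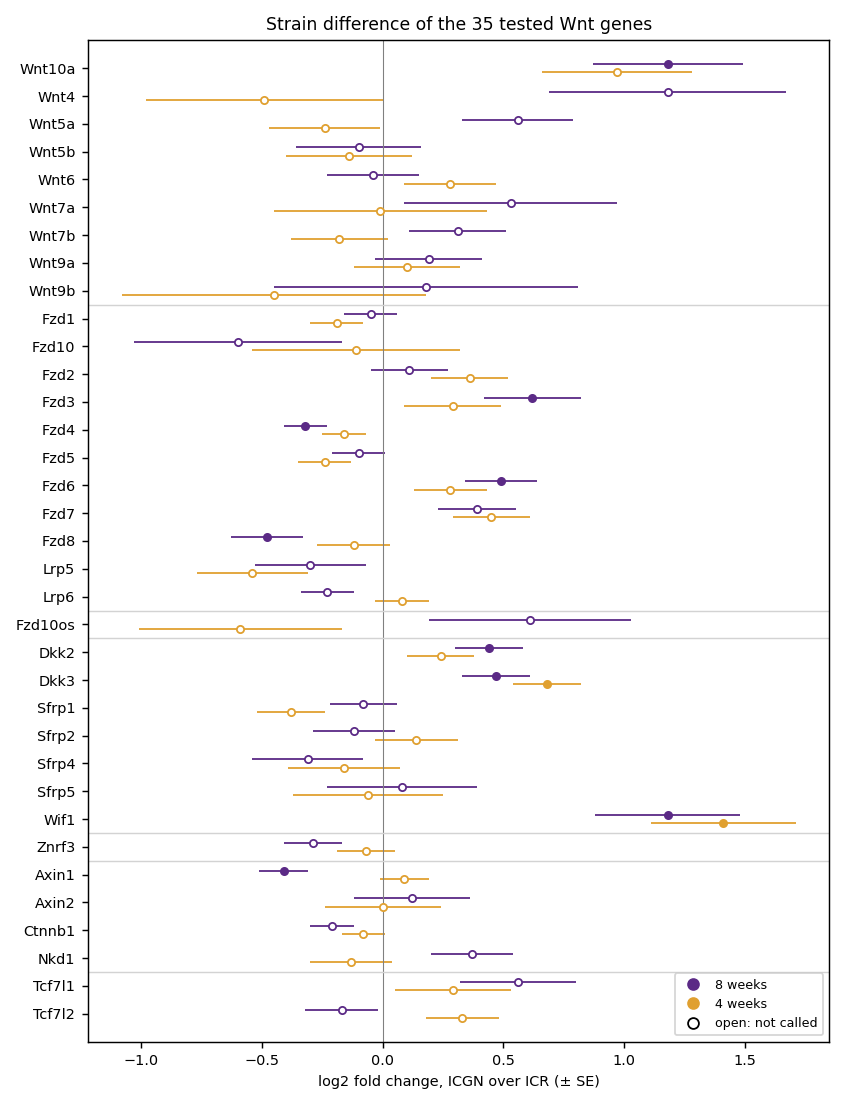
Strain difference (log2 change, ICGN minus ICR, with standard error, 3 arrays a group) of the 35 tested Wnt genes at 8 and 4 weeks, grouped by role, with called genes marked. Differences run from -0.60 to 1.18 at 8 weeks and from -0.59 to 1.41 at 4 weeks, and the largest values at 8 weeks are those of Wif1, Wnt10a and Wnt4 (1.18 each), of which Wnt4 was not called.

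Wif1 encodes a secreted protein that binds Wnt ligands directly and keeps them from their receptors. Its level was 6.21, 6.07 and 6.49 in ICGN cortex at 8 weeks, against 5.51, 4.91 and 4.79 in ICR cortex. In the 4-week arrays it was 5.91, 5.75 and 6.40 in ICGN cortex, against 4.16, 5.08 and 4.57 in ICR cortex. Every ICGN array lay above every ICR array of its age. The difference was 1.18 ± 0.30 (adjusted p = 0.00907) at 8 weeks and 1.41 ± 0.30 (adjusted p = 0.0179) at 4 weeks, and the interaction of strain and age was -0.23 ± 0.43 (adjusted p = 0.785). The signal was dim: it exceeded the array median on 3 of 3 ICGN arrays at 8 weeks and 2 of 3 at 4 weeks, and on no ICR array. With no filter on dim signals the call stood at both ages (adjusted p = 0.00912 at 8 weeks and 0.0194 at 4 weeks). The size of the fold therefore depends on the offset, from 0.70 with 4 times the offset to 1.60 with none at 8 weeks, and from 0.71 to 2.30 at 4 weeks. The 8-week call held under all 22 alternatives that gave a value. The 4-week call was lost without ICGN replicate 1 (1.47, adjusted p = 0.06) or 3 (1.22, adjusted p = 0.0738) and without ICR replicate 1 (1.19, adjusted p = 0.0618) or 3 (1.40, adjusted p = 0.0534).

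Dkk3 encodes a secreted glycoprotein of the Dickkopf family that, unlike Dkk1, is not a firm antagonist of Lrp6 and is known as a stress-induced product of kidney tubules. Its level was 8.31, 7.98 and 8.28 in ICGN cortex at 8 weeks, against 8.0, 7.57 and 7.60 in ICR cortex. At 4 weeks it was 7.91, 8.03 and 8.07 in ICGN cortex, against 7.25, 7.31 and 7.42 in ICR cortex. At 8 weeks the lowest ICGN array lay just below the highest ICR array, while the groups were apart at 4 weeks. The difference was 0.47 ± 0.14 (adjusted p = 0.0172) at 8 weeks and 0.68 ± 0.14 (adjusted p = 0.0122) at 4 weeks. The 4-week call was lost without ICGN replicate 2 (0.67, adjusted p = 0.0538). The 8-week call was lost when the arrays were not centred (0.35, adjusted p = 0.0808) and without ICGN replicate 1 (0.41, adjusted p = 0.0691) or 3 (0.42, adjusted p = 0.0646) or ICR replicate 2 (0.39, adjusted p = 0.0644) or 3 (0.41, adjusted p = 0.0667). A second Dkk3 probe set, 1417312_at, had levels of 8.08, 7.60 and 8.04 in ICGN cortex at 8 weeks, against 7.10, 7.25 and 7.08 in ICR cortex. These groups did not overlap (0.76 ± 0.17, adjusted p = 0.00456 over 21826 probe sets), and this call held under all 22 alternatives. At 4 weeks the second probe set gave 0.58 ± 0.17 (adjusted p = 0.086).

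Dkk2 encodes a Dickkopf protein that binds Lrp5 and Lrp6 and can block or, in some settings, enhance the signal. At 8 weeks its level was 8.65, 9.04 and 8.83 in ICGN cortex, against 8.53, 8.47 and 8.18 in ICR cortex. All 3 ICGN arrays were above all 3 ICR arrays (0.44 ± 0.14, adjusted p = 0.0311). At 4 weeks it was 7.67, 8.09 and 7.88 in ICGN cortex, against 7.74, 7.72 and 7.45 in ICR cortex, and the groups overlapped (0.24 ± 0.14, adjusted p = 0.412). The 8-week call was lost when the arrays were not centred (0.32, adjusted p = 0.108), without ICGN replicate 2 (0.34, adjusted p = 0.124) or 3 (0.45, adjusted p = 0.0712) and without ICR replicate 3 (0.34, adjusted p = 0.128).

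**Figure D2:**
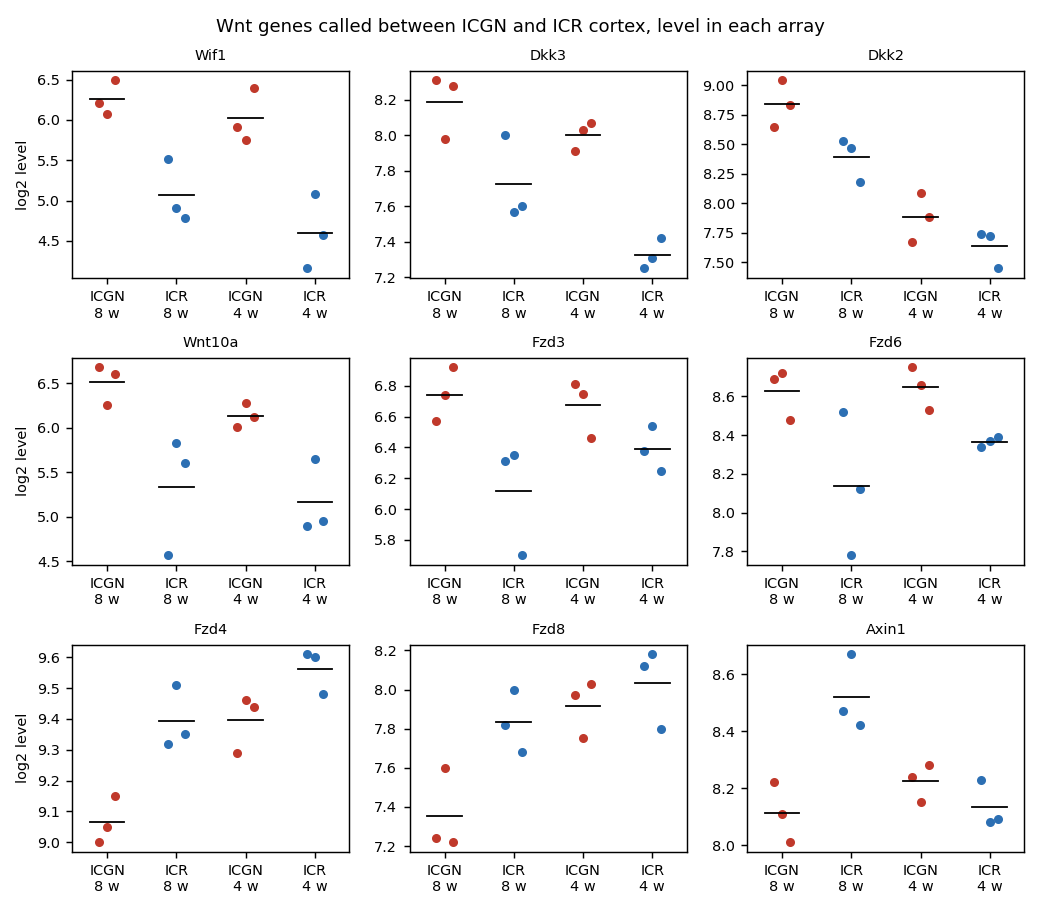
Level of the 9 Wnt genes called between the strains at either age (log2 level, each point 1 array, the bar the mean of 3). Wif1 and Wnt10a sit higher in every ICGN array than in any ICR array of the same age, and the Axin1 arrays at 8 weeks lie at 8.01 to 8.22 in ICGN and 8.42 to 8.67 in ICR.

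Of the 9 ligands that passed the filter, Wnt10a, a ligand of the canonical branch, was the 1 called. Its level was 6.68, 6.26 and 6.60 in ICGN cortex at 8 weeks, against 4.57, 5.83 and 5.61 in ICR cortex, with no overlap (1.18 ± 0.31, adjusted p = 0.0112). At 4 weeks it was 6.01, 6.28 and 6.12 in ICGN cortex, against 4.90, 5.65 and 4.95 in ICR cortex, again with no overlap, but the difference did not pass the test (0.97 ± 0.31, adjusted p = 0.107). No ICR array exceeded its array median, and with no filter on dim signals the 8-week call stood (adjusted p = 0.0151). The fold rests on dim ICR signals and moved between 0.73 with 4 times the offset and 1.57 with none at 8 weeks. The 8-week call held under all 22 alternatives that gave a value. Wnt4, a ligand of nephron formation and of injured tubules and interstitium, had the same 8-week difference with a wider spread: 5.71, 6.95 and 6.11 in ICGN cortex, against 6.27, 4.68 and 4.28 in ICR cortex. These groups overlapped (1.18 ± 0.49, adjusted p = 0.0833). Wnt5a, a ligand of the non-canonical branch, had 7.06, 7.38 and 6.94 in ICGN cortex at 8 weeks, against 6.95, 6.57 and 6.17 in ICR cortex, a difference of 0.56 ± 0.23 (adjusted p = 0.0783). Wnt5b, Wnt6, Wnt7a, Wnt7b, Wnt9a and Wnt9b, which complete the tested ligands, differed by -0.10 to 0.53 at 8 weeks and by -0.45 to 0.28 at 4 weeks, and none was called. With no filter on dim signals, the ligands Wnt3a and Wnt16 were also called higher in ICGN cortex at 8 weeks. Both lay above the array median on no array. Wnt16 was also called higher in the interaction of strain and age with no filter.

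Frizzled proteins are the membrane receptors that bind Wnt ligands, and 2 of the 11 tested receptors and co-receptors rose and 2 fell in ICGN cortex at 8 weeks. Fzd3, a receptor used in planar cell polarity, was at 6.57, 6.74 and 6.92 in ICGN cortex, against 6.31, 6.35 and 5.70 in ICR cortex. The groups did not overlap, and 1 low ICR array set much of the difference (0.62 ± 0.20, adjusted p = 0.0266), which without that array, ICR replicate 3, was 0.41 (adjusted p = 0.115). The Fzd3 call was also lost without ICGN replicate 2 (0.63, adjusted p = 0.0594) or 3 (0.54, adjusted p = 0.1). Under other settings it was lost without centring (0.50, adjusted p = 0.0647), with quantile normalization (0.50, adjusted p = 0.0708), in the 8-week arrays alone (0.62, adjusted p = 0.0607) and with the mean of both probe sets (0.54, adjusted p = 0.0574), the second of which gave 0.45 (adjusted p = 0.226). Fzd6, also a planar polarity receptor and an inhibitor of the canonical branch in some cells, was at 8.69, 8.72 and 8.48 in ICGN cortex, against 8.52, 7.78 and 8.12 in ICR cortex. The Fzd6 groups overlapped (0.49 ± 0.15, adjusted p = 0.0231), and the call was lost without ICGN replicate 1 (0.46, adjusted p = 0.0708) or 2 (0.45, adjusted p = 0.0728) or ICR replicate 2 (0.31, adjusted p = 0.0938) or 3 (0.48, adjusted p = 0.0602), without centring (0.37, adjusted p = 0.0755) and in the 8-week arrays alone (adjusted p = 0.0647). A second Fzd6 probe set gave 0.27 at 8 weeks and was not called (adjusted p = 0.282 over probe sets), while the mean of both gave 0.38 (adjusted p = 0.0289). At 4 weeks Fzd3 had 6.81, 6.75 and 6.46 in ICGN cortex, against 6.38, 6.54 and 6.25 in ICR cortex, and Fzd6 had 8.75, 8.66 and 8.53 in ICGN cortex, against 8.34, 8.37 and 8.39 in ICR cortex. The 4-week Fzd3 groups overlapped and the Fzd6 groups did not, and neither difference passed the test (0.29 ± 0.20 and 0.28 ± 0.15).

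Fzd4, the receptor for norrin as well as for Wnt ligands and known for its role in endothelium, was at 9.0, 9.05 and 9.15 in ICGN cortex at 8 weeks, against 9.32, 9.51 and 9.35 in ICR cortex. The groups did not overlap, and the difference was -0.32 ± 0.09 (adjusted p = 0.0157). At 4 weeks it was 9.29, 9.46 and 9.44 in ICGN cortex, against 9.61, 9.60 and 9.48 in ICR cortex, which did not pass the test (-0.16 ± 0.09, adjusted p = 0.376). The other Fzd4 probe sets gave 0.10 and 0.09 at 8 weeks, and the mean of all its probe sets gave -0.05 (adjusted p = 0.792), so the fall belongs to 1 of 3 probe sets. Fzd8, a receptor of the canonical branch, was at 7.24, 7.60 and 7.22 in ICGN cortex at 8 weeks, against 7.82, 8.00 and 7.68 in ICR cortex. Again the groups did not overlap (-0.48 ± 0.15, adjusted p = 0.0222), whereas the second Fzd8 probe set gave 0.12 and the mean of both gave -0.18 (adjusted p = 0.341). At 4 weeks Fzd8 was at 7.97, 7.75 and 8.03 in ICGN cortex, against 8.12, 8.18 and 7.80 in ICR cortex, with overlap (-0.12 ± 0.15). The Fzd4 call was lost without ICGN replicate 1 (-0.29, adjusted p = 0.0567) or ICR replicate 2 (-0.26, adjusted p = 0.0593), with quantile normalization (-0.23, adjusted p = 0.0873) and under the authors' scaling (-0.20, adjusted p = 0.118). The Fzd8 call was lost without ICGN replicate 1 (-0.42, adjusted p = 0.0791) or 3 (-0.42, adjusted p = 0.0833) or ICR replicate 2 (-0.40, adjusted p = 0.0812), and under the authors' scaling (-0.37, adjusted p = 0.0812). Fzd1, Fzd2, Fzd5, Fzd7, Fzd10, Lrp5 and Lrp6 were not called between the strains. By the probe set that stood for each gene, Fzd7 came nearest of these at 8 weeks. Its level was 8.80, 9.18 and 8.90 in ICGN cortex, against 8.62, 8.58 and 8.49 in ICR cortex (0.39 ± 0.16, adjusted p = 0.078). Fzd2 gave 0.11 by its brightest probe set, but 1.11 (adjusted p = 0.0706 over probe sets) by 1418532_at. The mean of the Fzd2 probe sets gave 0.47 (adjusted p = 0.0851). Fzd10os, which the rule caught by its symbol, is a transcript opposite Fzd10 and not a receptor, and it differed by 0.61 ± 0.42 at 8 weeks (adjusted p = 0.29).

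Inside the cell, Axin1, the scaffold of the complex that marks beta-catenin for destruction, fell in ICGN cortex at 8 weeks. Its level was 8.22, 8.11 and 8.01 in ICGN cortex, against 8.47, 8.67 and 8.42 in ICR cortex, with no overlap (-0.41 ± 0.10, adjusted p = 0.00884). At 4 weeks it was 8.24, 8.15 and 8.28 in ICGN cortex, against 8.23, 8.08 and 8.09 in ICR cortex, and the groups overlapped (0.09 ± 0.10, adjusted p = 0.703). A second Axin1 probe set gave -0.22 ± 0.15 at 8 weeks (adjusted p = 0.295). Under the authors' scaling the Axin1 difference at 8 weeks was -0.29 (adjusted p = 0.0691). Axin2, which beta-catenin induces and which is widely read as a gauge of canonical activity, showed no called difference: its levels spanned 5.55 to 6.35 over all 12 arrays, near the array median, and the strain difference was 0.12 ± 0.24 at 8 weeks and 0.00 ± 0.24 at 4 weeks. Ctnnb1, which encodes beta-catenin, was at 12.84, 13.06 and 12.96 in ICGN cortex at 8 weeks, against 13.06, 13.20 and 13.24 in ICR cortex (-0.21 ± 0.09, adjusted p = 0.0755). The other tested Ctnnb1 probe sets gave -0.06 and -0.07 at 8 weeks, and the mean of all of them gave -0.11 (adjusted p = 0.42). Nkd1, an inducible inhibitor that binds Dishevelled, differed by 0.37 ± 0.17 at 8 weeks (adjusted p = 0.102). The ligase Znrf3, which removes Frizzled from the membrane, differed by -0.29 ± 0.12 (adjusted p = 0.0883). The DNA-binding partners of beta-catenin, Tcf7l1 and Tcf7l2, differed by 0.56 ± 0.24 (adjusted p = 0.0903) and -0.17 ± 0.15 (adjusted p = 0.419). A second Tcf7l1 probe set gave -0.41 at 8 weeks (adjusted p = 0.583 over probe sets), and the mean of both gave 0.07 (adjusted p = 0.887).

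The probe sets of Sfrp1, a secreted Frizzled-related protein that binds Wnt ligands, differed among themselves at 8 weeks, with strain differences of -0.11 to 0.68, whereas at 4 weeks all 5 lay at -0.50 to -0.38 and none was called. The brightest of its 5 probe sets, 1448395_at, was at 9.77, 9.72 and 9.60 in ICGN cortex at 8 weeks, against 9.71, 9.76 and 9.86 in ICR cortex, and the groups overlapped (-0.08 ± 0.14). Probe set 1416594_at was at 8.43, 8.43 and 8.52 in ICGN cortex at 8 weeks, against 7.55, 8.27 and 7.79 in ICR cortex. Probe set 1460187_at was at 8.03, 8.35 and 8.05 in ICGN cortex at 8 weeks, against 7.15, 7.61 and 7.61 in ICR cortex. Both were higher in every ICGN array than in any ICR array. The difference was 0.59 ± 0.17 (adjusted p = 0.0183 over probe sets) for 1416594_at and 0.68 ± 0.21 (adjusted p = 0.0276) for 1460187_at. At 4 weeks the order was the other way with overlap, and neither was called: 1416594_at was at 9.0, 8.66 and 8.54 in ICGN cortex, against 8.93, 9.23 and 9.20 in ICR cortex, and 1460187_at at 9.27, 8.85 and 8.61 in ICGN cortex, against 8.81, 9.54 and 9.52 in ICR cortex. The 8-week call was lost for 1416594_at without ICGN replicate 3 (0.56, adjusted p = 0.0592) or ICR replicate 1 (0.44, adjusted p = 0.0717) or 3 (0.55, adjusted p = 0.06), and for 1460187_at without ICGN replicate 2 (0.58, adjusted p = 0.0987) or 3 (0.73, adjusted p = 0.0519) or ICR replicate 1 (0.53, adjusted p = 0.0986). Both were also lost without centring (0.47, adjusted p = 0.0559, for 1416594_at and 0.56, adjusted p = 0.063, for 1460187_at). Averaged over its 5 probe sets, Sfrp1 differed by 0.23 ± 0.13 at 8 weeks (adjusted p = 0.217). Sfrp2, Sfrp4 and Sfrp5 were not called between the strains at either age. They differed by -0.12 ± 0.17, -0.31 ± 0.23 and 0.08 ± 0.31 at 8 weeks. The values at 4 weeks were 0.14 ± 0.17, -0.16 ± 0.23 and -0.06 ± 0.31. The median of the 7 tested secreted modulators was 0.08 at 8 weeks and 0.14 at 4 weeks. Counted as probe sets, 9 of the 58 tested were called higher and 3 lower at 8 weeks (20.7%, against 27.2% of all probe sets, 11.6% higher and 15.6% lower), and 2 higher and 0 lower at 4 weeks (3.45%, against 3.14%, 1.41% higher and 1.73% lower).

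**Figure D3:**
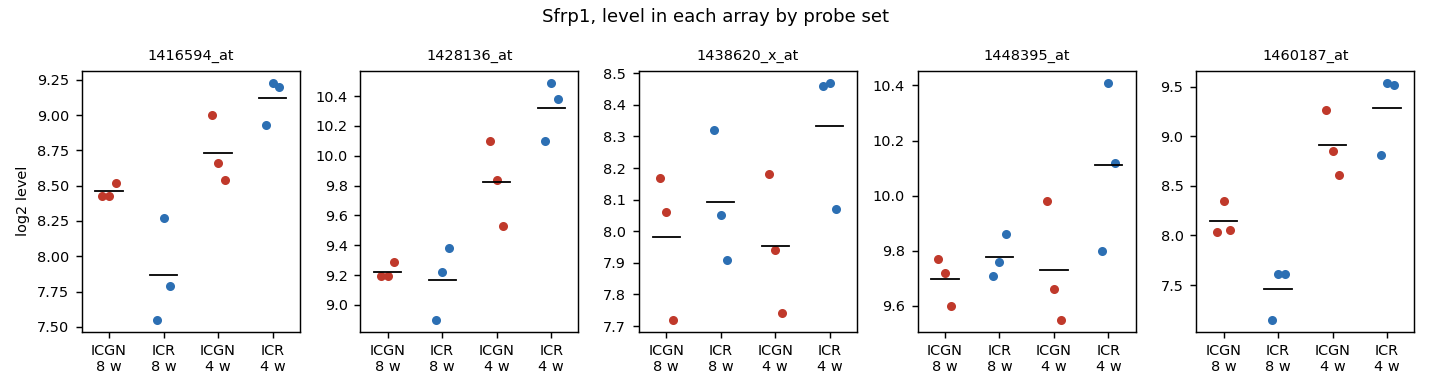
Level of the 5 Sfrp1 probe sets (log2 level, each point 1 array, the bar the mean of 3). At 8 weeks the ICGN arrays of 1416594_at lie at 8.43 to 8.52 and the ICR arrays at 7.55 to 8.27, a gap that the brightest probe set, 1448395_at, does not show.

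The interaction of strain and age, which is the difference at 8 weeks minus that at 4 weeks, asks whether the strain difference changed with age. Of the 35 Wnt genes 0 were called higher and 1 lower (2.86%, against 9.36% of all genes, 4.29% higher and 5.07% lower), with 3 higher and 2 lower at an unadjusted p under 0.05 (8.57% and 5.71%, against 11.1% and 14.6% of all genes). The 1 called was Axin1 (-0.50 ± 0.15, adjusted p = 0.0488), and this call held under only 5 of 22 alternatives, with an adjusted p of up to 0.118. It was lost without any 1 of the 12 arrays other than ICR 4-week replicate 1, with differences of -0.42 to -0.55 in those fits. Wnt4 had the largest interaction value (1.66 ± 0.70, adjusted p = 0.151), followed by Fzd10os (1.20 ± 0.59, adjusted p = 0.219) and Wnt5a (0.80 ± 0.33, adjusted p = 0.143). Among probe sets, 2 of 58 were called higher and 0 lower (3.45%, against 6.32% of all probe sets, 3.21% higher and 3.11% lower), and both were the Sfrp1 probe sets above: 0.98 ± 0.24 (adjusted p = 0.0287) for 1416594_at and 1.07 ± 0.30 (adjusted p = 0.0494) for 1460187_at. The call of 1416594_at held under 12 of 21 alternatives and that of 1460187_at under only 4 of 21, with an adjusted p of up to 0.07 and 0.114. The first was lost without ICGN 4-week replicate 2 or 3, ICR 4-week replicate 2 or 3, ICGN 8-week replicate 1 or 3 or ICR 8-week replicate 3, and with no centring or no trend. The second was lost without any 1 array other than replicate 1 of ICGN or of ICR at 4 weeks, and with either change of the offset, no centring, quantile normalization, no filter, no trend and the replicate block.

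At 8 weeks relative to 4 weeks, Tcf7l2 and Dkk2 rose and Sfrp2 fell in both strains. The strains were measured on separate arrays, but both shared the scaling of their age before deposit. A change seen in both strains therefore cannot tell age from processing. In ICGN cortex 3 of 35 Wnt genes rose and 3 fell (17.1%, against 22.7% of all genes, 11.1% higher and 11.6% lower). In ICR cortex 5 rose and 2 fell (20.0%, against 33.0%, 18.7% higher and 14.4% lower). The ages did not overlap in 7 Wnt genes in ICGN and 8 in ICR, against 42.1% and 43.7% of all genes. Tcf7l2, a TCF/LEF factor that directs beta-catenin to its target genes, had levels of 8.08, 8.10 and 8.07 at 8 weeks and 7.13, 6.79 and 7.06 at 4 weeks in ICGN cortex. In ICR cortex it had 8.24, 8.32 and 8.19 at 8 weeks and 6.33, 6.93 and 6.74 at 4 weeks. The ages did not overlap in either strain (1.09 ± 0.15, adjusted p = 3e-04, in ICGN; 1.58 ± 0.15, adjusted p = 5.99e-06, in ICR), but the other tested Tcf7l2 probe sets gave 0.22 and 0.89 in ICGN and 0.46 and 0.64 in ICR and were not called. Dkk2, whose levels are given above, rose by 0.96 ± 0.14 in ICGN (adjusted p = 0.000575) and 0.76 ± 0.14 in ICR (adjusted p = 0.0014). Sfrp2, a Frizzled-related protein of stromal cells, had 6.82, 6.92 and 7.0 at 8 weeks and 8.14, 8.29 and 7.81 at 4 weeks in ICGN cortex. In ICR cortex it had 7.03, 7.14 and 6.91 at 8 weeks and 7.61, 8.28 and 7.93 at 4 weeks. All 8-week arrays lay below all 4-week arrays (-1.17 ± 0.17, adjusted p = 0.000421, in ICGN; -0.91 ± 0.17, adjusted p = 0.00107, in ICR). These 6 calls held under all 22 alternatives that gave a value. Of 11 tested markers of fibroblasts, pericytes and smooth muscle, 1 rose and 7 fell with age in ICR cortex. In ICGN cortex 3 of them rose and 3 fell. Of 8 macrophage markers 6 rose with age in ICGN cortex and 2 in ICR cortex. The part of these marker changes in the Wnt gene changes with age was not tested.

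The co-receptor gene Lrp5 fell in ICR cortex, with 5.30, 5.73 and 5.77 at 8 weeks and 6.21, 6.67 and 6.22 at 4 weeks (-0.77 ± 0.23, adjusted p = 0.0213), and had -0.53 ± 0.23 in ICGN cortex (adjusted p = 0.12). Its ages did not overlap in ICR, and no 8-week array of either strain exceeded its array median. With no filter on dim signals the call in ICR stood (adjusted p = 0.0254). Lrp6, the other co-receptor, rose in ICR cortex, with 10.69, 10.44 and 10.63 at 8 weeks and 10.27, 10.34 and 10.12 at 4 weeks (0.34 ± 0.11, adjusted p = 0.0223), against 0.03 ± 0.11 in ICGN. Its second probe set rose in both strains (0.86 ± 0.23, adjusted p = 0.017, in ICGN; 1.00 ± 0.23, adjusted p = 0.0055, in ICR). Nkd1 rose in ICGN cortex, with 6.90, 6.64 and 6.74 at 8 weeks and 6.06, 6.51 and 6.17 at 4 weeks (0.51 ± 0.17, adjusted p = 0.039), against 0.01 ± 0.17 in ICR. Whether these age changes differ between the strains is the interaction above, which called none of Lrp5, Lrp6 and Nkd1. Without single arrays of the compared groups the adjusted p of Lrp5 reached 0.0977 (without ICR 4-week replicate 2) and 0.0776 (without ICR 8-week replicate 1). That of Lrp6 reached 0.0912 (without ICR 4-week replicate 3), 0.0748 and 0.0682 (without ICR 8-week replicates 1 and 3) and, with quantile normalization, 0.19. That of Nkd1 reached 0.139 and 0.0972 (without ICGN 4-week replicates 1 and 3) and 0.117, 0.0551 and 0.089 (without ICGN 8-week replicates 1, 2 and 3), and its call held under 11 of 21 alternatives, with 0.32 (adjusted p = 0.302) for the mean of its probe sets.

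Of the genes called between the strains, Fzd4 (-0.33 ± 0.09, adjusted p = 0.0201) and Fzd8 (-0.56 ± 0.15, adjusted p = 0.0134) fell with age in ICGN cortex. The Fzd4 call was lost without ICGN 4-week replicate 2 or 3 (adjusted p of 0.0811 and 0.0585) or ICGN 8-week replicate 1 or 2 (0.0633 and 0.057), and the Fzd8 call without ICGN 8-week replicate 3 (0.0598). The second Fzd8 probe set gave 0.16 in ICGN, and the mean of both gave -0.20 (adjusted p = 0.303). The mean of the Fzd4 probe sets fell in both strains, by -0.33 (adjusted p = 0.0499) in ICGN and -0.49 (adjusted p = 0.00475) in ICR. Fzd4 probe set 1419301_at was called lower in ICR (-0.76, adjusted p = 0.00306 over probe sets). Axin1 rose with age in ICR cortex (0.39 ± 0.10, adjusted p = 0.0108), though its second probe set gave -0.09 and the mean of both 0.15 (adjusted p = 0.239). Dkk3 also rose there (0.39 ± 0.14, adjusted p = 0.0379), though the second Dkk3 probe set gave -0.39 ± 0.17 there and their mean gave 0.00. The Dkk3 call was lost without ICR 4-week replicate 1, 2 or 3 (adjusted p of 0.102, 0.0867 and 0.0507), ICR 8-week replicate 1 (0.156) or ICGN 4-week replicate 2 (0.0505), with no filter (0.0616) and in the ICR arrays alone (0.0831). Sfrp1 fell with age in ICR cortex on 3 of its 5 probe sets, with changes of -1.25 ± 0.17 for 1416594_at, -1.83 ± 0.21 for 1460187_at and -1.15 ± 0.15 for 1428136_at, and on 2 of these in ICGN cortex, with -0.77 ± 0.21 for 1460187_at and -0.60 ± 0.15 for 1428136_at. Its mean over probe sets in ICR was -0.96 ± 0.13 (adjusted p = 0.000169). Fzd1 probe set 1422985_at was called lower with age in both strains (-1.18 in ICR and -0.49 in ICGN). Fzd2 probe sets 1418532_at and 1418533_s_at were called lower in ICR (-1.48 and -0.47). The brightest probe sets of Fzd1 and Fzd2 were not called. Tcf7l1 probe set 1436207_at was called lower with age in ICGN (-1.63, adjusted p = 0.0302 over probe sets), whereas the brightest gave 0.31 and was not called. Ctnnb1 probe set 1430533_a_at was called lower with age in ICR (-0.42, adjusted p = 0.0253 over probe sets), whereas the brightest gave 0.14 and was not called. Over all 58 probe sets, 4 rose and 7 fell with age in ICGN (19.0%, against 23.3% of all probe sets, 12.8% higher and 10.6% lower), and 6 rose and 10 fell in ICR (27.6%, against 31.5%, 17.5% higher and 14.0% lower).

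**Figure D4:**
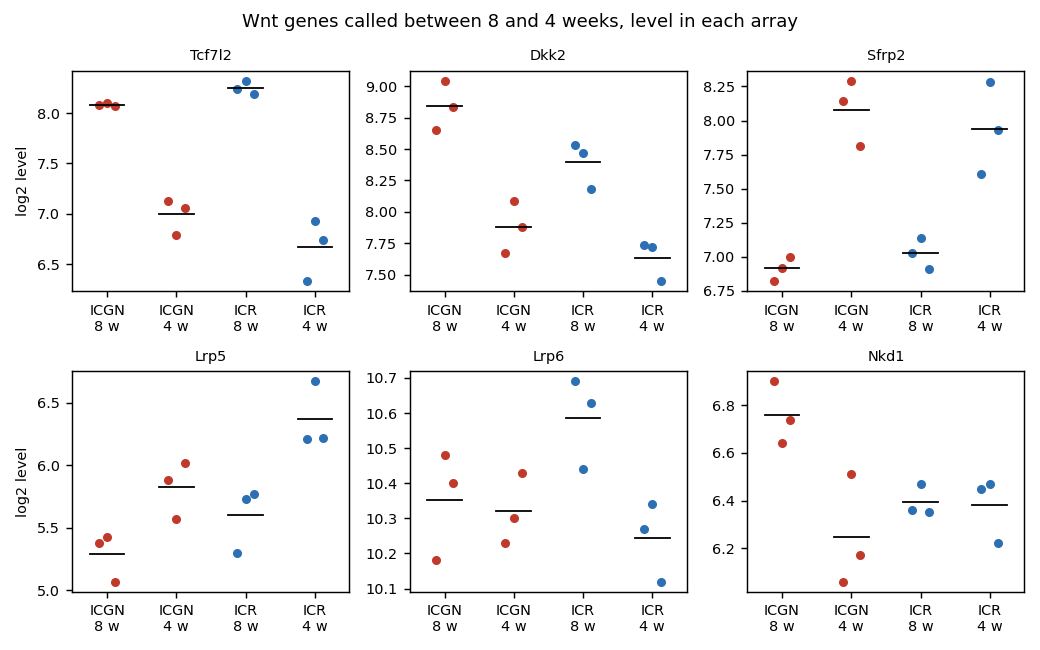
Level of the 6 Wnt genes called between the ages and described first in the age comparison (log2 level, each point 1 array, the bar the mean of 3). Tcf7l2 and Dkk2 are higher and Sfrp2 lower at 8 weeks in both strains, whereas Lrp5 and Lrp6 were called in ICR and Nkd1 in ICGN.

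Further regulators of the pathway that the symbol rule does not catch (42 of a list of 56 were tested) were called as follows. At 8 weeks 6 rose and 8 fell (33.3%, near the 32.4% of all genes), with a median of -0.08. Sostdc1, a secreted antagonist that binds Lrp6 and BMP ligands and is made in distal tubules, was at 11.13, 11.01 and 11.21 in ICGN cortex at 8 weeks, against 9.61, 9.62 and 10.02 in ICR cortex. Its 4-week level was 11.02, 11 and 10.68 in ICGN cortex, against 10.77, 11.04 and 11.17 in ICR cortex. The strains overlapped at 4 weeks and parted at 8 weeks (1.37 ± 0.14, adjusted p = 1.25e-05), and the interaction passed the test (1.47 ± 0.19, adjusted p = 0.00143), the 8-week ICR arrays being the low ones. Notum, which cuts the lipid from Wnt ligands and so inactivates them, was at 7.43, 7.57 and 7.0 in ICGN cortex at 8 weeks, against 8.39, 8.75 and 8.29 in ICR cortex. It fell with no overlap (-1.15 ± 0.20, adjusted p = 0.000816; interaction -1.0 ± 0.28, adjusted p = 0.0409). Prickle1, of the planar polarity branch, rose (0.76 ± 0.13, adjusted p = 0.000558), while Tle5 (-0.61 ± 0.11, adjusted p = 0.00133), a relative of the Tle co-repressors, Btrc (-0.66 ± 0.13, adjusted p = 0.00166), the ligase that takes up marked beta-catenin, and the glypican Gpc4 (-0.53 ± 0.13, adjusted p = 0.00657) fell. In the interaction 2 of the 42 were called higher, Sostdc1 and Prickle1 (0.89 ± 0.18), and 2 lower, Notum and Btrc (-0.74 ± 0.18), which is 9.52%, against 9.36% of all genes. The Sostdc1 and Notum differences at 8 weeks and the Sostdc1 interaction held under all alternatives run, whereas the Notum interaction was lost under 10 of 22, with an adjusted p of up to 0.102. That of Btrc was lost with the mean of its probe sets (-0.37, adjusted p = 0.191) and without ICGN 4-week replicate 3 (adjusted p = 0.0558) or ICR 4-week replicate 2 (adjusted p = 0.055). At 4 weeks 1 rose and 2 fell (7.14%, against 4.13% of all genes): the kinase Csnk1e (0.44 ± 0.11, adjusted p = 0.0451), the co-repressor Tle4 (-0.79 ± 0.17, adjusted p = 0.0176) and the Wnt receptor Ryk (-0.67 ± 0.15, adjusted p = 0.0266). The 4-week Csnk1e call was lost under 13 of 23 alternatives, that of Tle4 under 4 of 22 and that of Ryk under 7 of 23, leaving out single 4-week arrays among them, with an adjusted p of up to 0.121, 0.0859 and 0.119.

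Of 26 genes listed as beta-catenin targets in kidney or other tissues, 19 were tested, and many have other inducers. At 8 weeks 8 rose and 4 fell (63.2%, against 32.4% of all genes), with a median of 0.22. The list was chosen with earlier results of these data known, so its shares describe the list and are not a test of the pathway. Cd44, a hyaluronan receptor of injured tubules and of leukocytes, was at 9.40, 8.90 and 9.48 in ICGN cortex at 8 weeks, against 6.48, 6.24 and 6.24 in ICR cortex. Its 4-week level was 7.26, 7.16 and 7.62 in ICGN cortex, against 6.38, 6.23 and 6.20 in ICR cortex. The groups were apart at both ages, further at 8 weeks (2.94 ± 0.17, adjusted p = 4.24e-07, at 8 weeks; 1.07 ± 0.17, adjusted p = 0.00283, at 4 weeks; interaction 1.86 ± 0.24, adjusted p = 0.00135). The matrix gene Fn1 (1.42 ± 0.14, adjusted p = 1.2e-05), S100a4 (1.23 ± 0.18, adjusted p = 0.000255) and the growth regulator Myc (1.35 ± 0.21, adjusted p = 0.000404) also rose at 8 weeks. Sp5, a transcription factor whose induction by beta-catenin is well established, moved the other way: it was at 6.28, 6.38 and 5.94 in ICGN cortex at 8 weeks, against 6.92, 7.17 and 7.26 in ICR cortex. Sp5 fell with no overlap (-0.92 ± 0.19, adjusted p = 0.00264), as did Vegfa, which encodes the endothelial growth factor (-0.64 ± 0.11, adjusted p = 0.000583). The target list therefore had called members in both directions. At 4 weeks 2 rose and 0 fell (10.5%, against 4.13% of all genes), Cd44 and Myc. The 4-week Myc call (0.95 ± 0.21, adjusted p = 0.0224) was lost without ICGN replicate 1, 2 or 3 or ICR replicate 3 (adjusted p of 0.0684 to 0.0821). The 8-week counts were 5 higher without ICGN replicate 3 and 2 lower without ICR replicate 3.

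**Figure D5:**
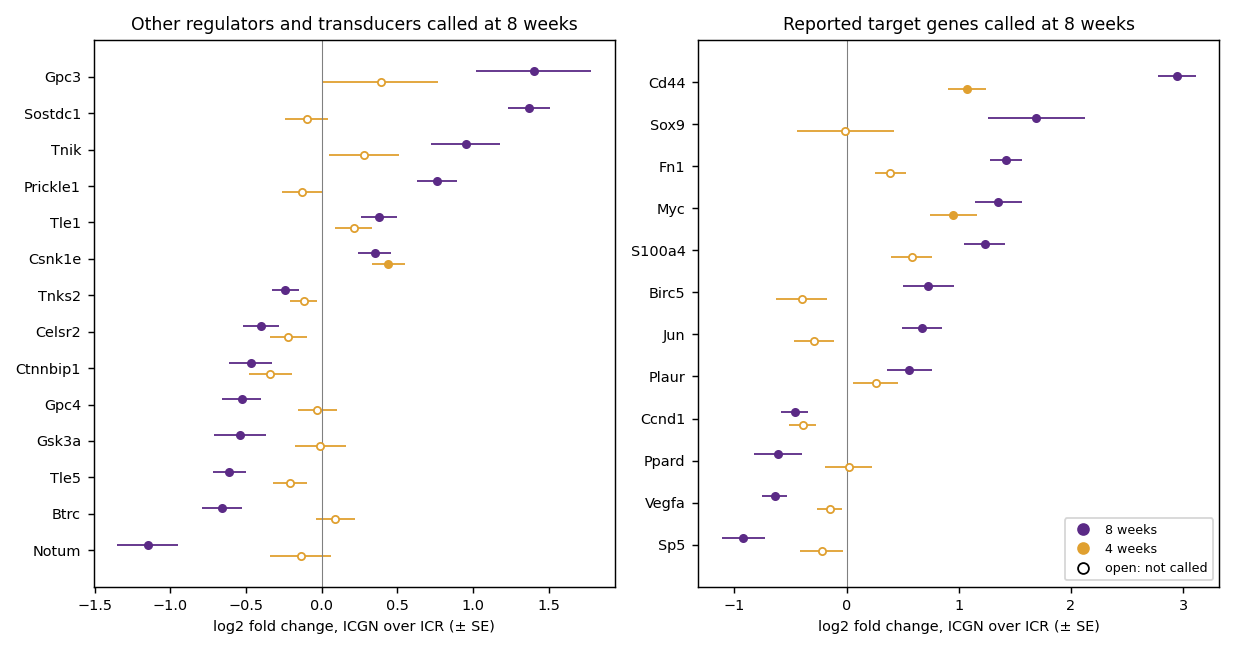
Strain difference (log2 change, ICGN minus ICR, with standard error, 3 arrays a group) at 8 and 4 weeks of the further pathway regulators and of the reported target genes called at 8 weeks. Cd44 (2.94) and Sostdc1 (1.37) lie to the right and Notum (-1.15) and Sp5 (-0.92) to the left at 8 weeks.

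Markers of the cell types in cortex differed between the strains at the same time as these genes. Over all genes 32.4% were called at 8 weeks (12.8% higher and 19.6% lower). At 4 weeks 4.13% were called (2.05% higher and 2.08% lower). Of 11 tested markers of fibroblasts, pericytes and smooth muscle, 6 rose and 1 fell in ICGN cortex at 8 weeks, among them Col1a1 (1.31 ± 0.24) and Pdgfrb (0.69 ± 0.16), and their summed scaled signal was 14690 to 16180 in ICGN cortex, against 9008 to 10570 in ICR cortex. Gli1 of that list was under the filter. At 4 weeks 0 rose and 1 fell, with sums of 14260 to 17870 in ICGN cortex, against 16580 to 22710 in ICR cortex. Of 8 macrophage markers 7 rose at 8 weeks (5 at 4 weeks), with sums of 6457 to 7711 in ICGN cortex, against 3260 to 4456 in ICR cortex. All 8 proximal tubule markers were tested and 6 fell at 8 weeks, with sums of 36090 to 41960 in ICGN cortex, against 52600 to 57500 in ICR cortex. Of 8 endothelial markers 5 fell, with sums of 3951 to 4357 in ICGN cortex, against 5273 to 5862 in ICR cortex. Of 6 loop and distal tubule markers 2 fell at each age. Their 8-week sums were 20050 to 23570 in ICGN cortex, against 24260 to 26930 in ICR cortex. At 8 weeks 2 of 5 podocyte, 2 of 4 T lymphocyte and 2 of 8 collecting duct markers rose, and 1 collecting duct marker fell. No tested marker of renal pelvis or inner medulla was called between the strains. Of 5 immediate early genes that respond to tissue handling as well as to injury, 4 rose at 8 weeks and 2 at 4 weeks, with sums of 1464 to 2294 in ICGN cortex, against 578.2 to 618.5 in ICR cortex at 8 weeks. The part of these marker differences in the Wnt gene differences was not tested. Without single arrays the 8-week Wnt counts moved to 3 higher without ICGN replicate 2 or 3, 2 higher without ICR replicate 3, 1 lower without ICGN replicate 1 or ICR replicate 2, and 5 lower without ICR replicate 3. The 4-week count of 2 higher moved to 1 without any 1 ICGN array or without ICR replicate 1 or 3.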

How the data were processed

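Each sample is 1 array. The table the authors deposited holds a linear signal intensity for each probe set. The submitters' processing notes name MAS5 and no version. Detection calls were not used here. A trimmed mean of 500 at 8 weeks and 100 at 4 weeks shows that the ages were scaled apart before deposit. Probe sets were named from the platform annotation, and 34945 carried 1 gene symbol. All 102 Wnt probe sets had a gene ID in RefSeq (GRCm38.p6), and 0 symbols changed. Sequences are RefSeq's.

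Arrays were scaled to 1 median, the 25th percentile of the scaled table (12.9) was added before log2, and each array was centred on its tested genes. A probe set was kept when above its array's median on at least 3 of 12 arrays. The brightest probe set stood for a gene. limma 3.58.1 in R 4.3.3 (lmFit, contrasts, eBayes with trend) was run on all 12 arrays, with 8 residual degrees of freedom before moderation. The fit was also tried on simulated data with independent noise and no array-wide shift, which cannot test the scaling. An exact permutation test of 3 against 3 cannot go below 0.10, so none was used. The number of arrays limits the precision. Alternatives were the offset, scaling, filter, probe set rule, trend, samples in the fit, replicate block and leaving out each array.

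The rule for named genes was to give every array for members called between the strains or in the interaction, then up to 8 members called between the ages, and up to 6 called genes for each further list. The members and lists were chosen with earlier results of these data known. Replicate numbers are shared by the groups and are not said to pair the samples. Deviations of same-numbered arrays correlated at -0.103 to 0.116 in 18 pairs, against -0.166 to 0.15 in 36 other pairs. Correlations over all genes cannot settle whether same-numbered arrays shared a handling step.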

Additional observations from a re-analysis of the deposited data

Results flagged for a closer look

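Differences in the strain effect between the ages were picked out by the interaction test in 3 cases. Axin1 differed by -0.41 at 8 weeks and 0.09 at 4 weeks, an interaction of -0.50 ± 0.15 (limma, adjusted p = 0.0488), a call that held under 5 of 22 alternatives. The Sfrp1 probe set 1416594_at had an interaction of 0.98 ± 0.24 (adjusted p = 0.0287 over probe sets), which held under 12 of 21. The Sfrp1 probe set 1460187_at had an interaction of 1.07 ± 0.30 (adjusted p = 0.0494), which held under 4 of 21. The remaining Sfrp1 probe sets had interaction values of 0.55, 0.30 and 0.27, none called. Groups of 3 arrays were not screened for single outlying arrays.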

How the results depend on the processing

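No called difference reversed its sign under an alternative, though some differences that were not called did. The split of calls by direction also changed. Counts of called Wnt genes changed as follows. At 8 weeks there were 2 higher and 5 lower when scaled to 1 median without centring, 3 higher with the 75th percentile filter, 0 lower under the authors' scaling, 1 lower with the mean of all probe sets, and 2 to 9 higher and 1 to 5 lower when arrays were left out. At 4 weeks the 75th percentile filter gave 1 higher, and leaving out each array gave 1 to 3 higher and 0 to 1 lower. In the interaction there was 1 higher with no filter, and 0 lower under quantile normalization, the authors' scaling, no filter, eBayes without trend, the mean of probe sets and the replicate block, with 0 to 1 in each direction when arrays were left out. With age in ICR there were 3 higher and 6 lower with the mean of probe sets, 4 lower under quantile normalization, 1 lower with the 75th percentile filter, and 3 to 5 higher and 1 to 5 lower when arrays were left out, against 2 to 3 in each direction in ICGN. Among further regulators there were 4 lower at 8 weeks under the authors' scaling, and 4 to 8 lower when arrays were left out. At 4 weeks there were 0 higher without centring, without a filter, with the 75th percentile filter, without trend and with the replicate block, and 1 lower with the 75th percentile filter, without trend and with the mean of probe sets but 0 in the 4-week arrays alone, and 0 to 1 higher and 0 to 3 lower when arrays were left out. Among reported targets the 8-week counts were 4 higher and 2 lower with the 75th percentile filter, and 5 to 8 higher and 2 to 4 lower with arrays left out. Their 4-week counts were 1 higher with that filter, 2 lower in the 4-week arrays alone, and 1 to 3 higher and 0 to 2 lower with arrays left out. The stricter filter tests fewer genes (14 Wnt genes), and the cause of the other changes was not tested. With the replicate block 12 Wnt genes were called at 8 weeks, the 9 above among them. The block ended the call of the Axin1 interaction (adjusted p = 0.0653). It also ended those of Nkd1 with age in ICGN and of the interaction of Sfrp1 probe set 1460187_at. Of the 12 arrays, 4 correlated best with their own number. Over all genes at 8 weeks, 39.6% of calls were higher, against 59.9% under the authors' scaling, 50.4% under quantile normalization and 24.6% without centring, where the median gene shifted to -0.184. The ages can be compared only after rescaling. Signals near the array median, such as Wif1, Wnt10a and Axin2, are compressed by the offset, and a small change there could be missed. Results for the further lists, and for the Dkk3 and Sfrp1 probe sets, were put through these alternatives after the data had been seen.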
